A study of Mus musculus with 82 samples.

Results

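AP-1 is a dimer of basic leucine zipper proteins, a class of transcription factors that pair through a zipper of leucines and bind DNA through the basic stretch beside it. The genes described here are 9 members of the FOS, JUN, BATF and ATF families (Fos, Fosb, Fosl2, Jun, Junb, Jund, Batf, Batf3 and Atf3), taken by symbol from the 55376 genes of the count files, and the histone peaks that carry the same gene names. All 9 were found. JUN proteins can pair with each other or with a FOS protein and bind the AP-1 element, whereas FOS proteins need a partner. BATF proteins have no activation domain of their own and bind with a JUN protein, often beside an IRF factor, and ATF3 is a stress-induced member that can repress or activate its targets. Several of these genes, Fos and Jun above all, are immediate early genes that cells switch on within minutes of a signal or of handling.

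The study asked how the epigenome and transcriptome of hematopoietic stem cells (HSCs), the bone marrow cells that maintain all blood lineages, change in aged mice, and what a shorter Btaf1 variant does in old HSCs. Fresh HSCs (LSK CD34-Flk2-CD150+) came from wild-type male C57BL/6J (CD45.2) mice, either young (3 to 4 months) or old (24 to 26 months). They were measured by mRNA-seq in 4 young libraries from pooled mice and 8 old libraries from individual mice, by ATAC-seq in 4 libraries per age, and by H3K27ac ChIP-seq in 2 libraries per age, and young HSCs also by ChIP-seq of H3K4me3 and of H3K27me3 (2 libraries each). Old HSCs transduced with a lentiviral control shRNA or with 1 of 2 shRNAs that target the shorter Btaf1 variant (shRNA1, shRNA2) were either cultured for 3.5 days or transplanted into irradiated young female CD45.1 recipients and sorted again (LSK CD48-CD150+CD45.2+), with 2 mRNA libraries per shRNA and experiment. Common myeloid progenitors (CMP), granulocyte-monocyte progenitors (GMP) and megakaryocyte-erythroid progenitors (MEP), which the sample names mark as young, gave 2 mRNA libraries each. ATAC-seq of further old libraries and H3K4me3 and H3K27me3 of old HSCs were not analysed here. Each transplanted library came from pooled recipients, as the study states. For both shRNA experiments it states that GFP-positive, transduced cells were sorted for sequencing. For cultured HSCs and progenitors it was not established here whether libraries came from separate cultures or animals, so p-values there measure the spread between these libraries only.

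The 30 mRNA libraries held 20475764 to 24654742 counts in fresh HSCs, 37292602 to 42737054 in shRNA-transduced HSCs and 33177394 to 36510850 in progenitors. Levels are given as CPM, a gene's counts scaled by the library's total on genes. The 8 HSC markers summed to 4714 to 4778 CPM in young and 4290 to 4740 CPM in old HSCs, 3522 to 3595 CPM in transplanted control HSCs, 1897 to 1934 CPM in cultured control HSCs, and 532.9 to 1028 CPM in the progenitors. CMP and GMP markers reached 16330 to 54870 CPM in CMP and GMP, and MEP markers 7207 to 7587 CPM in MEP. Markers of other cells also moved with age: 6 of the 7 B cell markers tested fell (summed level 120.9 to 250.3 CPM in young, 34.6 to 200 CPM in old libraries), all 6 MEP markers fell (193.9 to 260 against 42 to 68.9 CPM), and 3 of 4 red cell globin genes rose (14.3 to 18.5 against 26.7 to 182.5 CPM). Of the T and NK cell markers tested, 2 of 3 rose (summed level 23.9 to 27.1 against 65.5 to 91.7 CPM), as did 2 of 4 platelet and megakaryocyte markers while 1 fell (461 to 485.5 against 829.8 to 1152 CPM), and CMP and GMP markers summed to 191.2 to 225.2 against 137.5 to 171.9 CPM. No gene of these lists was at 0 in every library of either age. The part of these cells in the results below was not tested.

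The promoters of Jun, Fos, Batf and Atf3 are shown first, because these letters carry the known control elements of the family. Each run is the 150 bases before the RefSeq start in mouse build GRCm38.p6 (mm10), written 5′ to 3′ on the strand of the gene. Capitals mark TGACATCA, the AP-1-like element known from the Jun promoter. They also mark TGACGT, the core of the cAMP response element bound by CREB and ATF proteins, which reads as ACGTCA when it lies on the opposite strand. In Fos, capitals mark a TATA box, TATAAA, as well.

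Jun promoter, chr4:95052223-95052372, minus strand: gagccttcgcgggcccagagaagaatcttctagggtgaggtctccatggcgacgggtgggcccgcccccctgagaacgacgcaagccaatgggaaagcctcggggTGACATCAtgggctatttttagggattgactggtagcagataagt
Fos promoter, chr12:85473740-85473889, plus strand: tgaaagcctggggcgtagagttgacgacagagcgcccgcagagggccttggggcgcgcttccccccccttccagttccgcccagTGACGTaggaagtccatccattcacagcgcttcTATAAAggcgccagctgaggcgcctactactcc
Batf promoter, chr12:85686570-85686719, plus strand: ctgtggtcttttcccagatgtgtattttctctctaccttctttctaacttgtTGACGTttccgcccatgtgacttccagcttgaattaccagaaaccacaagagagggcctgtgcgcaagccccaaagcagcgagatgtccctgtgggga
Atf3 promoter, chr1:191183334-191183483, minus strand: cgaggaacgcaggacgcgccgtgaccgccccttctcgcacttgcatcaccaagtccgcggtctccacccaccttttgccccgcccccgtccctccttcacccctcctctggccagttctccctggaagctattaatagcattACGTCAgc

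TGACATCA lay 45 to 38 bases before the start of Jun and, searched on both strands, in 2.93% of the 32851 promoters of 250 bases. TGACGT lay 66 to 61 bases before the start of Fos and 98 to 93 bases before that of Batf, and ACGTCA 8 to 3 bases before that of Atf3; 6.47% of all promoters hold this core. The TATAAA of Fos, 33 to 28 bases before the start, is shared with 7.59% of promoters. The AP-1 element itself, TGANTCA, occurred in 6.75% of promoters and in none of the 9 members, and the full response element TGACGTCA in 1.55% and in none of the 9. At Jund the GENCODE start (70698949) lies downstream of the RefSeq start, and TGACGTCA lies between them, at chr8:70698735-70698742. These windows end at the RefSeq start site, so they say nothing of elements elsewhere.

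Levels differed widely between members. Per kilobase of exon, which allows genes of different length to be compared, young HSCs held 31.6 CPM of Batf, 31.1 CPM of Jund and 27.6 CPM of Junb. Jun followed with 7.24 CPM per kilobase and Fosl2 with 1.67 CPM per kilobase. Fos, Batf3, Atf3 and Fosb lay between 0.0745 and 0.513 CPM per kilobase, near the limit of detection for the last 3. In old HSCs the order of the upper 3 was Jund (35.9 CPM per kilobase), Batf (35.7 CPM per kilobase) and Junb (32.2 CPM per kilobase), and Jun reached 17.6 CPM per kilobase. The share of Jun in the summed level of the 9 genes was 7.23% in young and 14.1% in old HSCs.

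Old HSCs held more Jun and Fosl2 mRNA than young HSCs in every library. Of the 9 members, 7 passed the filter on low counts, and 4 of these 7 (Jun, Fosl2, Jund and Batf) were higher in old HSCs at an adjusted p below 0.05 by edgeR's quasi-likelihood test, where 11.9% of the 21522 genes tested were higher. None was lower. The libraries of the ages did not overlap for 2 of the 7, against 15.1% of all genes tested. The median log2 fold change was 0.26 over the 7 members and -0.01 over all genes tested.

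Among the FOS family, Fosl2, which encodes FRA2 and is the family member with the highest level in HSCs, was at 16.6, 18.4, 14 and 15.6 CPM in the young libraries, and between 20.1 and 30 CPM, with a median of 24.4 CPM, in the old. The lowest old library was above the highest young one. The log2 fold change was 0.63 (SE 0.097, adjusted p = 2.96e-05), and Fosl2 was called in each of the 17 alternative settings tried. Fos, the founding FOS gene, was at 1.05, 1.61, 0.921 and 1.24 CPM in young and between 1.11 and 2.96 CPM (median 1.74 CPM) in old libraries. These ranges overlapped, and the log2 difference of 0.63 (SE 0.26, adjusted p = 0.0935) did not pass the test. Fosb was at 0.0921 to 0.684 CPM in young and 0.0811 to 0.812 CPM in old libraries, with full overlap (log2 difference -0.09, adjusted p = 0.935).

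Among the JUN family, Jun, which encodes c-JUN, the strongest activator of the family, was at 21.5, 23.4, 23.3 and 24.1 CPM in young libraries. The old libraries lay between 42.5 and 73.3 CPM with a median of 57 CPM. Every old library was thus well above every young one, with mean levels of 56.2 ± 9.92 (SD, n = 8) and 23.1 ± 1.11 CPM (SD, n = 4). The log2 fold change was 1.32 (SE 0.13, adjusted p = 6.94e-06), and over the 17 alternatives the adjusted p stayed at or below 0.000117. Jund, a JUN protein that most cells hold without a stimulus, was at 52.6, 49, 50.5 and 55.5 CPM in young and 54 to 67.5 CPM (median 59.4 CPM) in old libraries. Only the lowest old library lay inside the young range, and the log2 fold change was 0.25 (SE 0.059, adjusted p = 0.00352). Junb, a JUN protein known as a restraint on HSC proliferation, was at 63.2, 70.5, 54.7 and 65.6 CPM in young and 63.4 to 88.7 CPM (median 73.4 CPM) in old libraries. The ranges overlapped and the log2 difference of 0.26 (SE 0.093, adjusted p = 0.0592) just missed the threshold; it passed with DESeq2 (adjusted p = 0.0207), without a filter on low counts (0.000101), and without old replicate 4 (0.0479), 5 (0.0326) or 8 (0.0212). The annotated gene Junos lies antisense over Jun (chr4:95051534-95167318, plus strand), Gm11175 lies inside Jund (chr8:70699162-70700080, minus strand), and Prdx2 (chr8:84969587-84974834, plus strand) reaches the 3′ end of Junb. No source used here says whether reads were counted by strand, so reads of such pairs cannot be told apart.

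Batf, whose product pairs with JUN proteins in lymphoid cells and is known as a differentiation checkpoint of HSCs, was at 44.2, 44.2, 42.4 and 46.8 CPM in young and 45.1 to 56.6 CPM (median 49.5 CPM) in old libraries. Only the lowest old library lay inside the young range, and the log2 fold change was small, 0.22 (SE 0.059, adjusted p = 0.00965). The call was lost without young replicate 3 (adjusted p = 0.0535). Batf3, a factor of cross-presenting dendritic cells, stayed at or below 0.46 CPM, and Atf3 at or below 0.656 CPM, in all fresh HSC libraries. Neither passed the filter on low counts. In bulk RNA, a change in the number of cells that express a gene and a change in RNA per cell cannot be told apart.

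**Figure D1:**
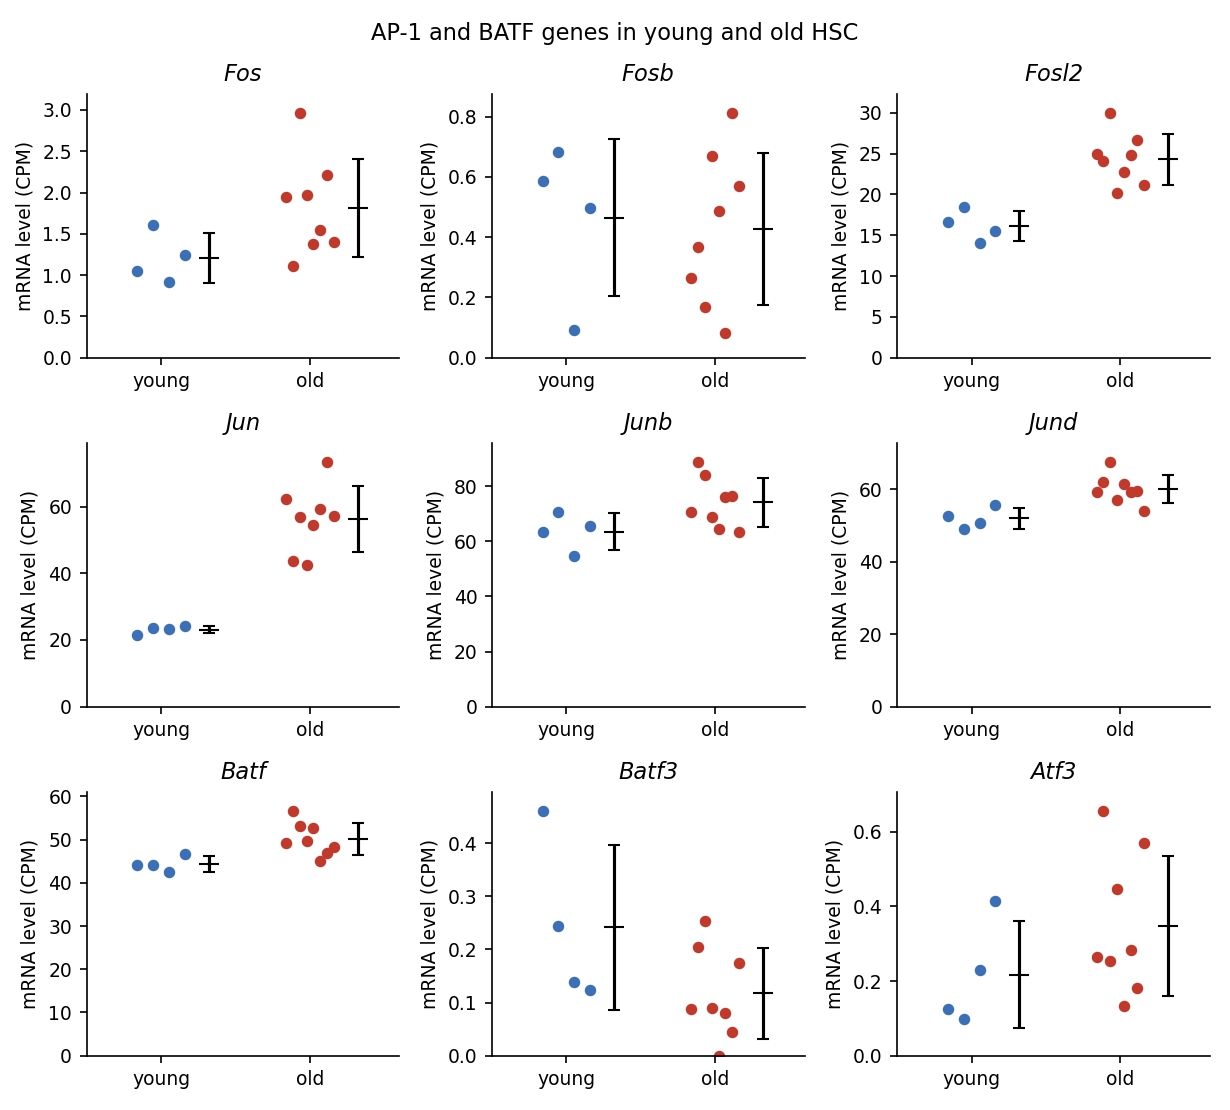
mRNA level in CPM (linear axes from 0) of the 9 genes in each library of young (blue, 4) and old (red, 8) HSCs, with the mean and SD in black. Jun and Fosl2 show no overlap between the ages, Jund and Batf overlap by 1 old library, and Fosb, Batf3 and Atf3 stay below 1 CPM.

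Genes that work with or downstream of the family were read from 6 lists. Of 19 other bZIP genes, 7 rose and none fell with age; the largest were Maf, a bZIP factor of macrophages and lymphocytes (6.19 to 19.6 CPM, log2 fold change 1.70), and Cebpb, a driver of emergency granulopoiesis (35.2 to 57.4 CPM, 0.75). Of 16 kinases and phosphatases of the JNK, p38 and ERK routes, which activate AP-1 proteins, 1 rose (Map3k5, log2 fold change 0.28) and 5 fell, led by Dusp1, the phosphatase that shuts down p38 and JNK (43 to 27.5 CPM, -0.61), and Map2k6, a kinase of p38 (-0.55). Of 6 activators of Fos transcription tested, 1 fell (Mrtfa, -0.33). Both IRF partners of BATF fell: Irf4 from 1.44 to 0.337 CPM (-2.05) and Irf8 from 11.8 to 7.77 CPM (-0.56). These factors are also high in B cells and dendritic cells, and the B cell markers fell beside them. Of 7 dendritic cell and macrophage markers 1 rose (Clec9a, 1.07) and 1 fell (Zbtb46, -0.76), with summed levels of 618.3 to 911 CPM in young and 279 to 889 CPM in old libraries. The part of these cells was not tested. Of 9 known AP-1 targets tested, 2 rose (Ccnd1, 0.38, and Plaur, 0.37) and 2 fell (Vegfa, -0.91, and Cd44, -0.22). Both rises were lost without young replicate 3 (adjusted p = 0.0974 and 0.0761) or 4 (0.0738 and 0.129), and that of Ccnd1 also without young replicate 1 (0.0909) or old replicate 6 (0.0559). Of 21 early response genes outside the family, which serve as a readout of handling as well as of signals, 3 rose, led by Socs3 (11.8 to 50.5 CPM, 2.13) and Ier3 (0.45), and 3 fell, led by Klf2 (-1.41) and Dusp2 (-0.75). Among all genes tested, 11.9% rose and 8.67% fell.

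H3K27ac, a mark of active promoters and enhancers, was next compared at the 12 peaks that carry a member's name. The values are signal per peak from libraries scaled by the authors to a fixed number of reads. Of these 12 peaks, 3 were higher in old HSCs (limma on log2(signal + 0.1), adjusted p below 0.05), against 2.1% of the 39557 peaks, and none was lower. Both old libraries were above both young ones at 4 of the 12 peaks, against 29.9% of all peaks. Fosl2 had the clearest change. Its promoter peak (chr5:32135128-32137044) held 6.62 and 6.53 in young and 9.51 and 10.7 in old libraries, with a log2 difference of 0.61 (SE 0.13, adjusted p = 0.00596). At Fos (chr12:85473430-85474722, over the start) the signal was 5.8 and 7.57 in young and 9.45 and 10.2 in old libraries, a log2 difference of 0.56 (SE 0.13, adjusted p = 0.0212). Junb had an upstream peak, with its middle at -1220 bp from the start (chr8:84979686-84980251) that rose from 3.59 and 3.11 to 5.14 and 5.94 (0.71, adjusted p = 0.0181), and a peak over its body (chr8:84976889-84978637) at 3.56 and 3.31 in young and 5.13 and 4.98 in old libraries (0.54, adjusted p = 0.0738).

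The promoter of Jun, whose mRNA differed most, showed no such difference: the signal was 9.62 and 10.3 in young and 9.83 and 10 in old libraries (log2 difference -0.01, SE 0.11). Jund, at 6.6 and 8.57 in young and 6.78 and 6.63 in old libraries, and Batf, at 3.75 and 3.42 in young and 3.71 and 3.82 in old libraries, also overlapped. Fosb held 5.11 and 7.7 in young and 7.74 and 7.47 in old libraries (0.27, adjusted p = 0.37), with spread between the young libraries as large as the difference. Atf3 (2.64 to 3.07), Batf3 (1 to 1.43) and the 2 intron peaks of Batf (1.67 to 3.15) had the lowest signals, and none passed the test. None of the 12 peaks was called without old replicate 1 or without old replicate 2, which leaves 1 library in that group, although the log2 differences at Fosl2, Fos and upstream of Junb were 0.69, 0.61 and 0.81 without the former and 0.53, 0.51 and 0.61 without the latter, and 5 were called when either young replicate was left out, among them Jund as lower without young replicate 1 (adjusted p = 0.0465). When libraries were set to equal median signal the call at Fos was lost (limma, adjusted p = 0.0701). A rule like the study's asked for a ratio of means above 1.5 and at least 1.2 in every pair of libraries. By it 2 of the 12 peaks passed, Fosl2 and upstream of Junb, against 4500 of the 39557. Fos, at a ratio of 1.47, did not pass it.

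**Figure D2:**
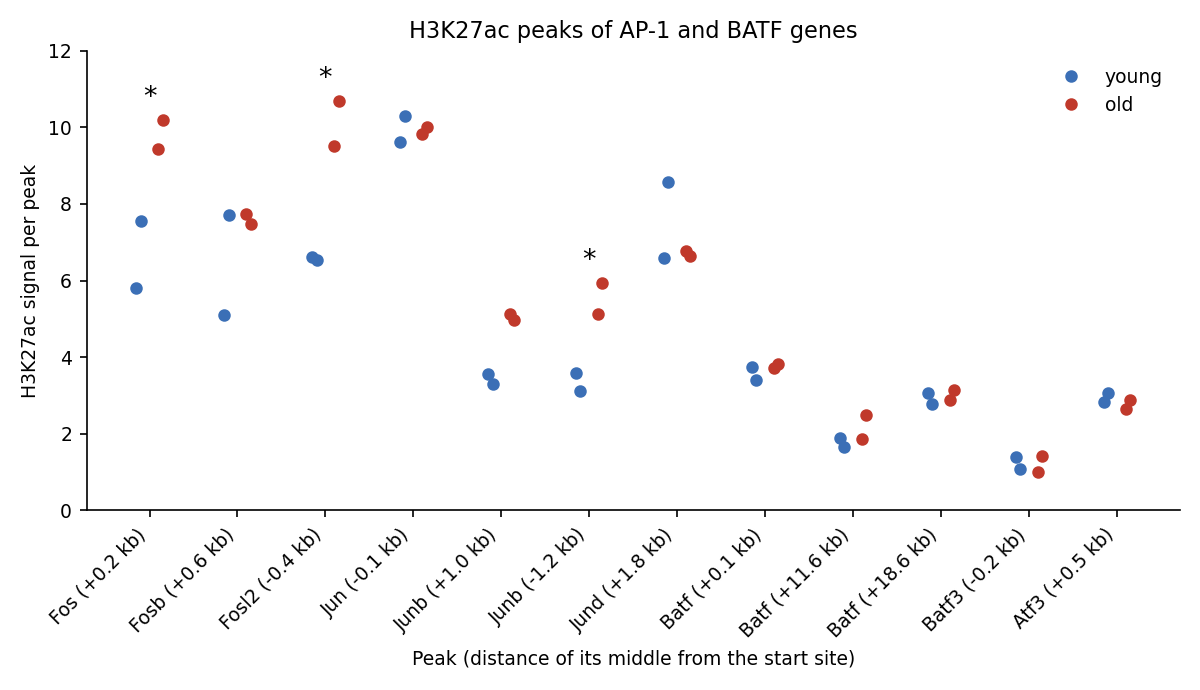
H3K27ac signal per peak (linear axis from 0) in each young (blue) and old (red) library at the 12 peaks named for a member, with the distance of the peak's middle from the RefSeq start. Stars mark the 3 peaks called higher in old HSCs, at Fos, Fosl2 and upstream of Junb; both old libraries also lie above both young ones at the Junb gene body peak.

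Young HSCs carried H3K4me3, the mark of promoters ready for transcription, in a peak near the start of all 9 genes. The mean signal was 29 at Junb, 25.7 at Fosl2, 25.4 at Jund, 24.6 at Jun, 21.7 at Fosb, 17.7 at Batf, 16.4 at Fos, 14.4 at Atf3 and 12.2 at Batf3, against a median of 5.37 over 33199 peaks. H3K27me3, the mark of Polycomb repression, had peaks named for Fosb (2.08, toward the 3′ end), Atf3 (1.12), Batf3 (0.638) and Fos (0.588), against a median of 0.389 over 55820 peaks. No H3K27me3 peak was named for Jun, Junb, Jund, Fosl2 or Batf. The 4 genes with an H3K27me3 peak were also the 4 with the lowest mRNA level per kilobase in young HSCs, while their H3K4me3 signal lay above the median of all peaks. The share of all genes with such a peak was not counted here, so this describes the 9 genes only.

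Accessible chromatin was compared at the 69 ATAC-seq regions whose middle lies nearest to the start of a member and within 100 kb, 56 of which passed the filter. With calls made at an adjusted p below 0.01 and more than 1.5-fold, 1 of the 56 was higher in old HSCs, against 10.1% of the 89245 regions tested, and 2 were lower, against 2.9%. The higher region lies 10.7 kb upstream of Jun (chr4:95062609-95063239). It was at 2.1, 1.75, 2.65 and 2.29 CPM in young and 3.49, 3.94, 3.78 and 4.14 CPM in old libraries. All old libraries were above all young ones, with a log2 fold change of 0.78 (SE 0.18, adjusted p = 0.000552). Both lower regions lie downstream of Fos, outside the gene. The one at 44.4 kb (chr12:85518091-85518530) fell from 2.02, 1.88, 2 and 2.4 CPM to 1.35, 0.424, 1.15 and 0.704 CPM (-1.24, adjusted p = 0.000203). This region exceeded 1.5 CPM in the 4 young libraries alone, so it was tested only because of the age at which it is high and could only be called lower. It falls below the filter without any 1 of them. The one at 59.4 kb (chr12:85532845-85533711) fell from 4.94, 4.93, 4.26 and 5.33 CPM to 2.95, 3.24, 3.78 and 2.85 CPM (-0.61, adjusted p = 0.00176), a call that was lost without young replicate 4 (adjusted p = 0.0116), without old replicate 8 (0.0111) and, on its size (-0.57), without old replicate 5. The count of called regions was 1 without young replicate 4 and 5 without old replicate 7, and no called region lay within 10 kb of a member.

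Among the regions nearest to the start sites of the 9 genes, those of Jun, Jund and Fosl2 had an adjusted p below 0.01 (edgeR). All 3 were less accessible in old HSCs, but by less than 1.5-fold. The share of all regions past this limit without a fold limit was not counted here, so these regions are described singly. At Jun the promoter region (chr4:95051415-95053628) had means of 126.7 CPM (young) and 114.1 CPM (old), with every old library lower (log2 difference -0.17, adjusted p = 0.00111). At Jund the region (chr8:70698337-70699461) has its middle 1160 bp downstream of the RefSeq start and spans the GENCODE start, and the means were 49.9 and 40.7 CPM, again without overlap (-0.31, adjusted p = 1.3e-05). At Fosl2 the region (chr5:32134924-32136125) has its middle at -948 bp from the RefSeq start and spans the GENCODE start (32135801), and the means were 33.6 and 29.1 CPM with overlap (-0.23, adjusted p = 0.00561). The regions at Fos (-0.18), Fosb (-0.20), Batf (-0.12), Batf3 (-0.27), Atf3 (-0.15) and Junb (-0.06) had values below 0 with adjusted p between 0.0227 and 0.653. None of the 9 was called. Over the 56 regions the median log2 difference was -0.18, against -0.01 over all regions tested.

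**Figure D3:**
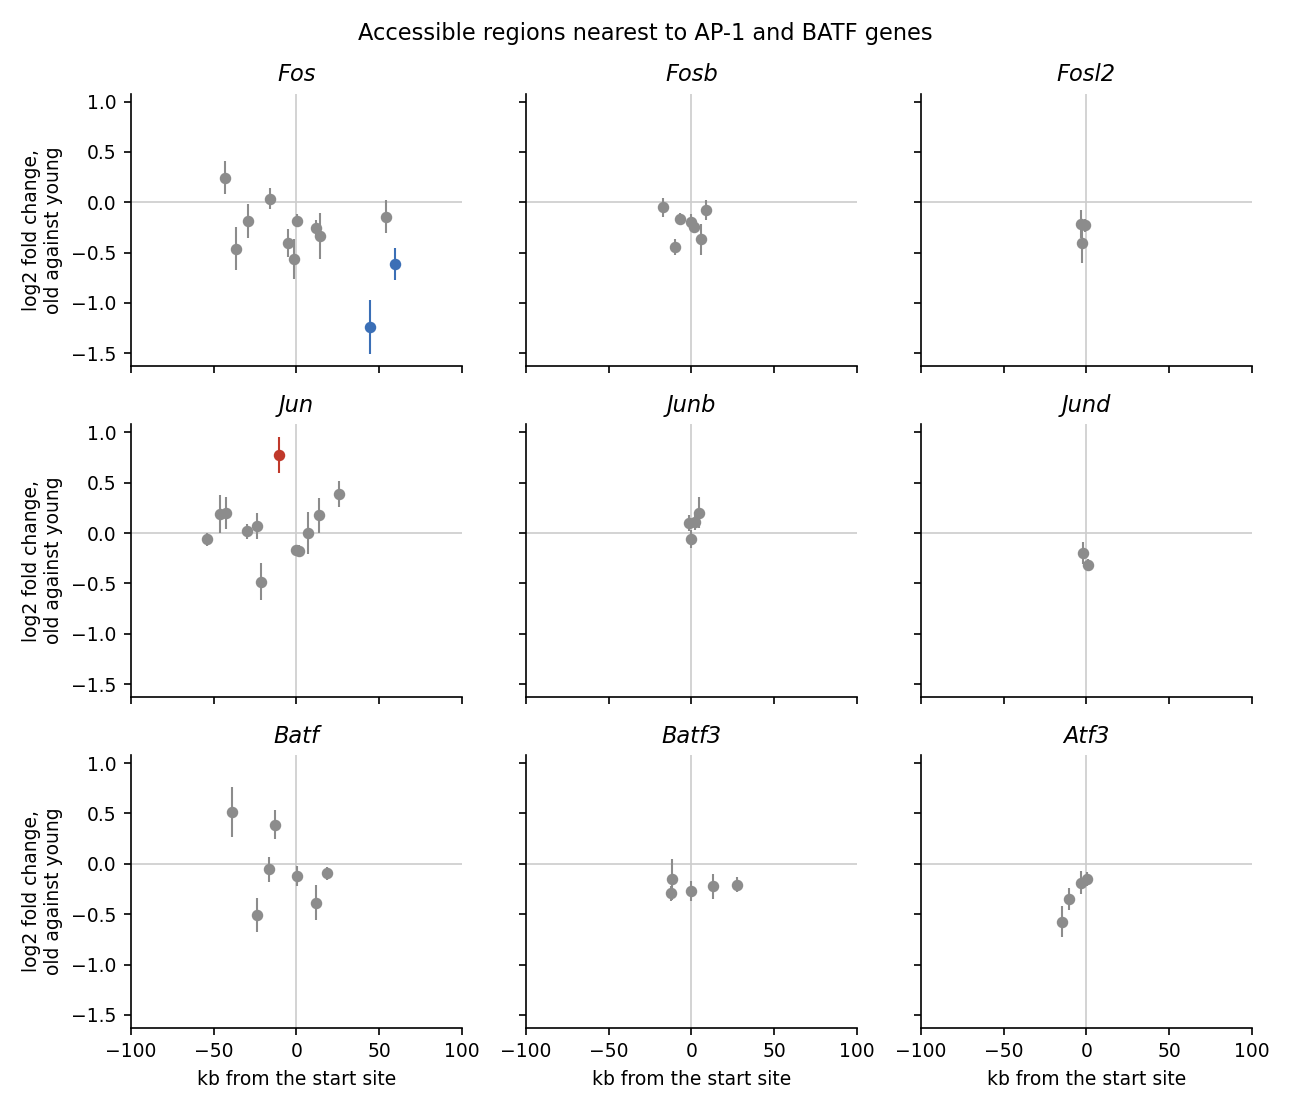
log2 fold change (old against young HSCs, bars SE) of the 56 tested accessible regions against the distance of their middle from the RefSeq start of the nearest member, in kb. The region 10.7 kb upstream of Jun (red) was called higher and the regions 44.4 and 59.4 kb downstream of Fos (blue) lower, the former tested only through the young libraries, while most others (grey, not called) lie slightly below 0.

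The sequence of 4 of these regions is shown because they bear on whether the members' own genes lie beside AP-1 elements. The first is part of the region over the GENCODE start of Fosl2, the second of the region upstream of Jun, and the others of the regions 44.4 and 59.4 kb downstream of Fos. Capitals mark TGANTCA, which reads the same on both strands in its outer letters.

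Fosl2 region, chr5:32135807-32135906, plus strand: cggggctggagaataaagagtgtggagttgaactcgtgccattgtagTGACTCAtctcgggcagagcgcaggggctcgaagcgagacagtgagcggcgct
Jun upstream region, chr4:95062875-95062974, plus strand: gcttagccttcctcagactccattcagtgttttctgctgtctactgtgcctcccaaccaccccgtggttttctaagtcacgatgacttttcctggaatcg
Fos region at 44.4 kb, chr12:85518261-85518360, plus strand: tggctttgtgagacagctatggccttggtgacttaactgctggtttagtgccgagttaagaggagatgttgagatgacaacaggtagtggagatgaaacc
Fos region at 59.4 kb, chr12:85533335-85533434, plus strand: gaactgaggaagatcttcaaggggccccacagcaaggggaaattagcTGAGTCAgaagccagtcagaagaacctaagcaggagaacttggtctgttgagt

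The region at Fosl2 held 1 such element and the region 59.4 kb downstream of Fos held 2, of which 1 is within the bases shown. The region 44.4 kb downstream of Fos held none. The region upstream of Jun, the only one of the members that was called higher, held none. Of the 56 member regions, 14 held at least 1 AP-1 element anywhere in the region, at 6 of the 9 genes, and 1 held the response element TGACGTCA. Over all regions tested, 22.5% held an AP-1 element anywhere.

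The AP-1 element was then counted across all accessible regions, since these letters are what dimers of the family bind. Among the 8999 regions called higher in old HSCs, 16.1% held TGANTCA within the middle 200 bases. The share was 7.73% among the 77654 regions not called and 5.17% among the 2592 regions called lower. The same letters in reverse order, ACTNAGT, were in 5.95%, 4.75% and 4.86% of these classes, a much smaller difference. TGACGTCA was rarer in the higher class (0.189%) than among regions not called (0.453%) or called lower (0.463%), and the comparison letters AGTCGACT were in 0.0111%, 0.0502% and 0.0386%. The middle 200 bases were 45.4% G or C in the higher class, 51.4% in regions not called and 52.2% in the lower class; the part of base composition in these shares was not tested beyond the reversed letters. Regions are not independent replicates, so the shares are given as a description without a test, and they do not tell which protein, if any, was bound.

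**Figure D4:**
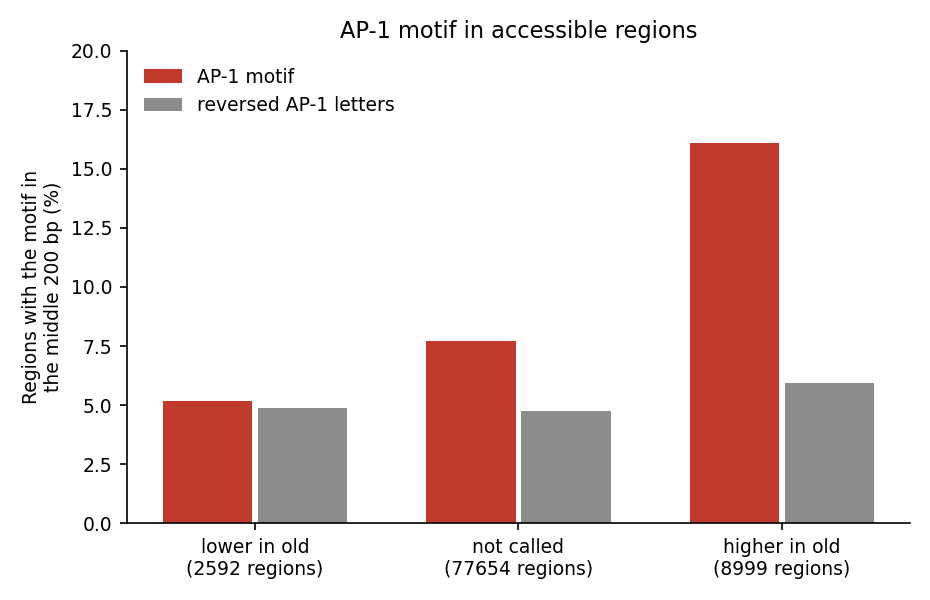
Percent of accessible regions with the AP-1 element (red) or its reversed letters (grey) in the middle 200 bp, by class in old against young HSCs (bars from 0, number of regions in parentheses). The AP-1 element is in 16.1% of the regions higher in old HSCs and in 7.73% of those not called, while the reversed letters stay between 4.75% and 5.95%.

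In the shRNA libraries, Btaf1 itself was measured first. Gene-level counts hold the canonical and the shorter variant together, so they show only part of the knockdown. Btaf1 was at 137 and 141.1 CPM in cultured control libraries, 110 and 119.2 CPM with shRNA1 and 111.2 and 113.4 CPM with shRNA2. After transplantation it was at 160.6 and 165.5 CPM in controls, 131.2 and 139.2 CPM with shRNA1 and 119.2 and 117.8 CPM with shRNA2. Every knockdown library was below both controls of its experiment, and the mean of each shRNA was 72.7% to 82.9% of the control mean.

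In cultured old HSCs none of the 7 members tested was called after knockdown, by edgeR (0 also at an unadjusted p below 0.05) or by DESeq2, where 3.36% of the 19763 genes tested were called. Junb had the largest difference, with 65.7 and 115.4 CPM in the controls, 68.9 and 51.5 CPM with shRNA1 and 70.4 and 63.7 CPM with shRNA2. The controls themselves differed by more than the knockdown libraries, and the log2 difference of -0.52 (SE 0.28) had an adjusted p of 0.504. Fosl2 was at 18.4 and 20.4 CPM in controls, 17.4 and 14.6 CPM with shRNA1 and 16.7 and 19 CPM with shRNA2 (-0.22, adjusted p = 0.377). Jund, at 228.5 and 228.7 CPM in controls, lay between 208.6 and 229.7 CPM after knockdown (-0.09, adjusted p = 0.352). Jun (-0.20), Atf3 (-0.09), Fos (-0.04) and Batf (-0.03) differed less than their libraries spread. In the network lists, 1 bZIP gene rose (Cebpb, 0.44) and 1 fell (Bach2, -0.59) of 18, and 1 early response gene fell (Klf6, -0.26) of 22. All 3 calls were lost without control replicate 1 (adjusted p = 0.191, 0.282 and 0.124), and those of Cebpb (0.101) and Klf6 (0.306) also without control replicate 2.

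In transplanted old HSCs none of the 7 members tested was called either, by edgeR or DESeq2, and no gene of the 20350 tested was (0%). At an unadjusted p below 0.05, 2 of the 7 were lower, Fosl2 and Junb, where 2.32% of all genes tested were lower at the same limit. Fosl2 was at 12 and 12.5 CPM in controls, 8.64 and 11.5 CPM with shRNA1 and 5.55 and 6.68 CPM with shRNA2. All 4 knockdown libraries were below both controls, with a log2 difference of -0.60 (SE 0.26, unadjusted p = 0.0432, adjusted p = 0.881). Junb was at 55.3 and 58 CPM in controls, 38.6 and 52.4 CPM with shRNA1 and 38.2 and 46.6 CPM with shRNA2. Again all 4 were below both controls (-0.37, SE 0.13, unadjusted p = 0.0191, adjusted p = 0.852). Knockdown and control libraries did not overlap for these 2 of the 7 members and for 14.7% of all genes tested.

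The other members stayed closer to the controls after transplantation. Jun (-0.03), Jund (-0.06), Batf (-0.04) and Fos (0.02) differed by less than their spread, and Fosb (-0.71, SE 1.02) was near the limit of detection. Atf3 had no read in either control, and 12, 6, 5 and 8 counts in the 4 knockdown libraries, too few to be tested. None of the 7 members differed between the shRNAs past the threshold. Fosl2 had the lowest adjusted p, 0.283, at 10.1 CPM with shRNA1 and 6.11 CPM with shRNA2 (log2 difference -0.71). The knockdown effect on Fosl2 in culture minus that after transplantation was 0.43 on the log2 scale (adjusted p = 0.424), so a difference between the experiments was not shown. Granulocyte markers summed to 6.17 to 108.2 CPM in the transplanted controls, 165.7 to 522 CPM with shRNA1 and 57.4 to 405.2 CPM with shRNA2, and their part in these values was not tested.

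Cultured and transplanted control HSCs differed far more than any knockdown pair. Of 8 members tested, 4 were higher in culture (Jund, Fosl2, Jun and Atf3), where 21.4% of the 21443 genes tested were higher. Atf3 passed the filter on low counts only through the cultured libraries and could only be called higher, which leaves 3 of the other 7. The libraries did not overlap for 6 of the 8, 5 higher and 1 lower, against 73.9% of all genes. Jund was at 228.5 and 228.7 CPM in culture and at 68.6 and 71.3 CPM after transplantation. Its log2 fold change was 1.84 (SE 0.058, adjusted p = 3.11e-11), and all 6 cultured libraries, with any shRNA, held 208.6 CPM or more while no other library exceeded 71.8 CPM. Atf3 had 156 and 152 counts in the cultured controls (3.65 and 4.08 CPM) and 0 in both transplanted controls. With a floor of 6 counts (3 read pairs) over the group, Atf3 was at least 51.2-fold higher in culture. Fosl2 was at 18.4 and 20.4 against 12 and 12.5 CPM (0.80, SE 0.16, adjusted p = 0.00104).

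Jun was at 37.2 and 65.6 CPM in cultured and 31.6 and 37 CPM in transplanted controls, with a narrow gap between the groups. The log2 fold change was 0.72 (SE 0.23, adjusted p = 0.0305), and the call was lost in many settings. Without cultured control replicate 2 the value was 0.26 (adjusted p = 0.219), without transplanted control replicate 1 it was 0.60 (0.2004) and without replicate 2 it was 0.84 (0.0854). Leaving out any 1 of the 4 transplanted knockdown libraries gave an adjusted p of 0.0623 to 0.0744, and the 4 control libraries alone gave 0.102. Junb, at 65.7 and 115.4 against 55.3 and 58 CPM, did not pass the test (0.81, adjusted p = 0.053). It did pass without cultured control replicate 1 (adjusted p = 0.00256), with RLE size factors (0.0483) and with DESeq2 (0.0169). Batf was alike in level, at 45 and 47.2 against 55 and 44.5 CPM (0.02, SE 0.089, adjusted p = 0.867), and Fos overlapped (0.94, adjusted p = 0.122). Over the alternative settings the log2 fold change of Fos ran from 0.39 to 1.81. Fosb had 2 counts in each cultured control and 10 in each transplanted one, too near the floor to compare.

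The lists moved in both directions in the same comparison, in which 21.4% of all genes tested were higher in culture and 22.3% lower. Of 22 early response genes, 11 were higher, among them Klf2 (1 to 4.98 CPM, 2.44) and Ccn1 (0.101 to 0.976 CPM, 3.37; not called without cultured control replicate 2 or either transplanted control, adjusted p = 0.097 to 0.136), and 5 lower, led by Egr1 (84.8 to 30.4 CPM, -1.35) and Dusp2 (-1.19). Ccn1 lay near the floor of 0.0752 CPM in the transplanted controls, so it could hardly be called lower in culture. Of 19 other bZIP genes, 6 were higher, led by Maff (1.35) and the stress factor Atf4 (1.19), and 4 lower, led by Maf (-2.17) and Batf2 (-1.65). Of 16 kinases and phosphatases 6 were higher, led by Dusp5 (0.77) and Dusp16 (0.70), and 4 lower, led by Dusp6, an ERK phosphatase (147.1 to 25.4 CPM, -2.40), and Map2k6 (-0.83). Of 10 AP-1 targets 5 were higher, among them Spp1 (2.56 to 24.2 CPM, 3.38), and 1 lower, Ccnd1 (53.6 to 9.3 CPM, -2.40). Timp1, another of the 5, was at 0 in both transplanted controls and at 0.224 CPM in culture, so it could only be called higher, and its call was lost without any 1 of the 4 controls (adjusted p = 0.0528 to 0.0854). Dendritic cell and macrophage markers summed to 42.5 to 44.4 CPM in cultured and 567.6 to 759.7 CPM in transplanted controls, with Adgre1 and C1qa at 0 in both cultured controls and Itgax at 0 in both groups. Platelet and megakaryocyte markers summed to 1235 to 1268 CPM in cultured and 417.9 to 592.6 CPM in transplanted controls (2 of 4 higher), and plasma cell genes to 777.8 to 790.2 and 230.7 to 249.5 CPM (2 of 3 higher), while 5 of 8 HSC markers were lower in culture. The part of these cells in the members' values was not tested. The experiments also differ in sort gate and time in a host, and the study does not state the RNA extraction of cultured HSCs. Experiment and condition therefore cannot be told apart.

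**Figure D5:**
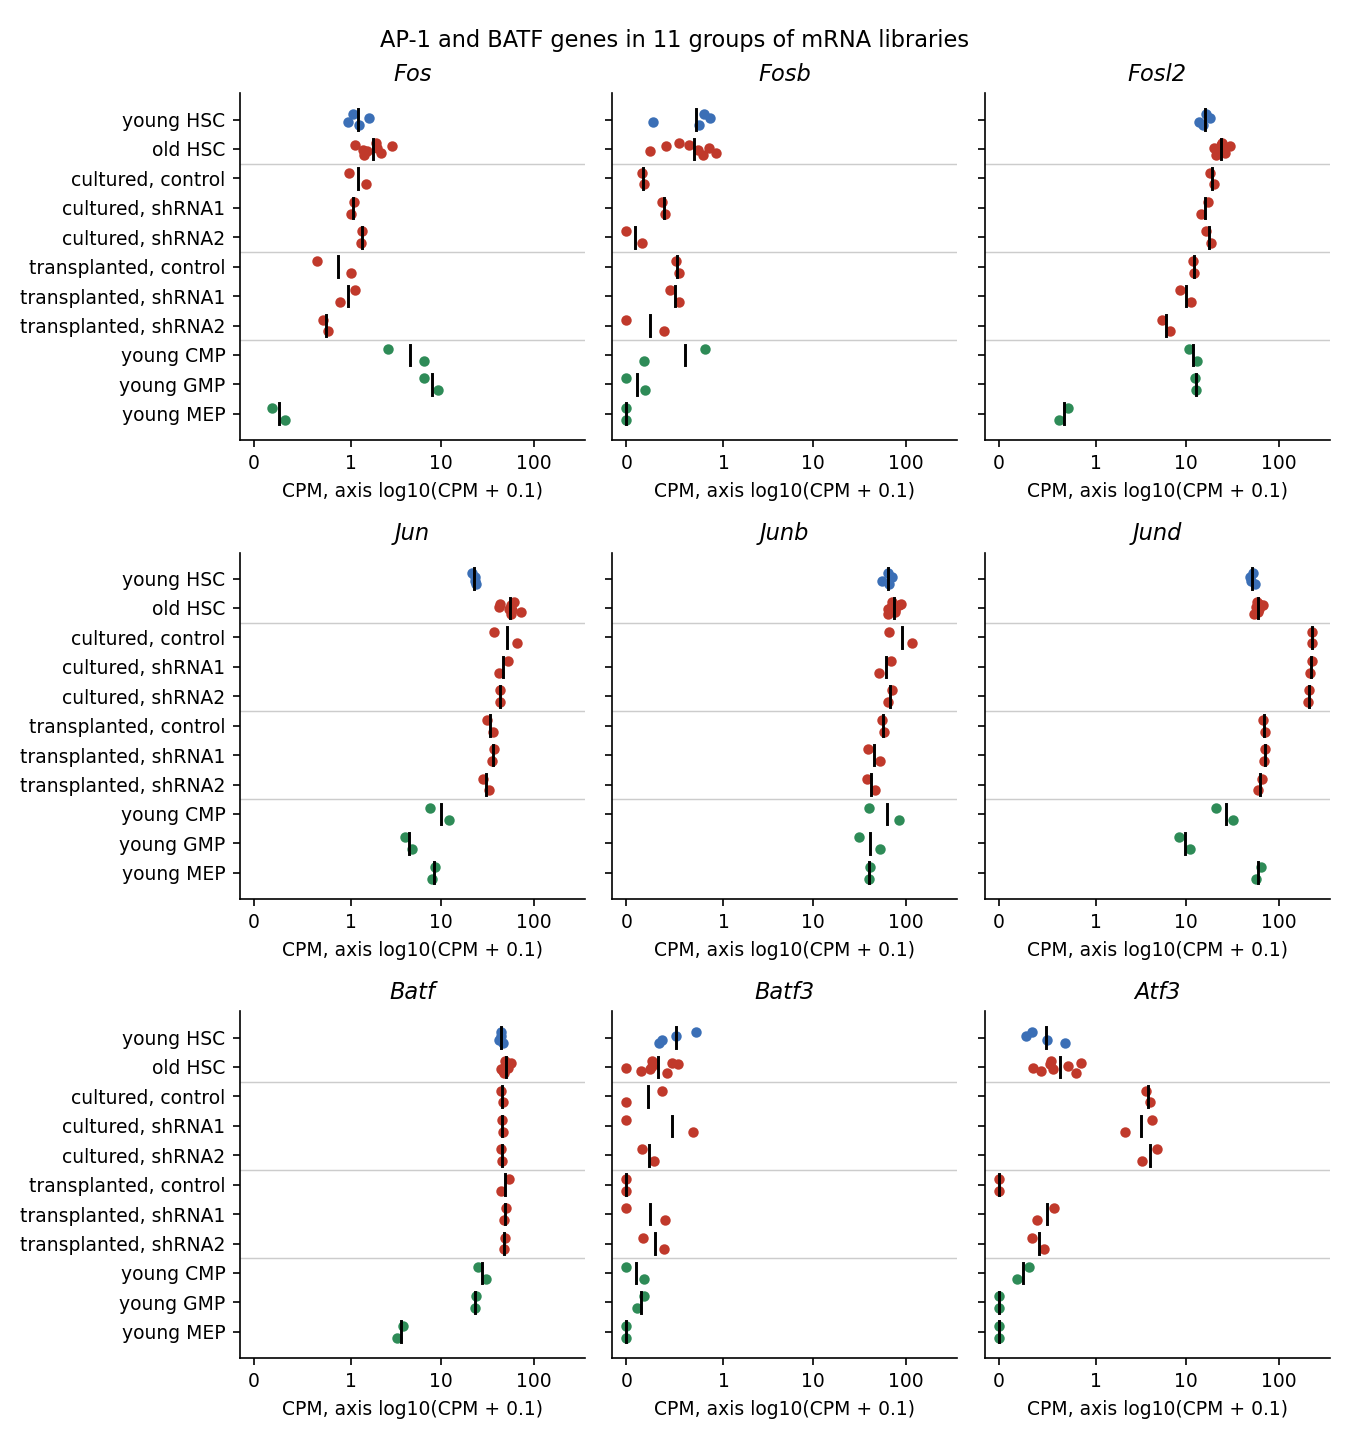
mRNA level of the 9 genes in each library of the 11 groups (points; black bars are group means; axis log10(CPM + 0.1), labelled in CPM), with fresh young HSCs in blue, old HSCs in red and progenitors in green. Jund (208.6 CPM or more) and Atf3 (2.17 CPM or more) stand apart in the cultured HSCs, and Fos, Fosl2 and Batf are lowest in MEP.

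In the progenitors, MEP held almost no Fos or Fosl2 and little Batf, whereas Jund was several-fold higher than in GMP. Of 6 members tested, 4 were called between MEP and CMP (64.6% of the 18234 genes tested were called) and 5 between MEP and GMP (61.4%), so the number called is close to the background in both. Fos passed the filter on low counts only through CMP and GMP and could only be called lower in MEP, which leaves 3 and 4 of the other 5. Between GMP and CMP, Jun and Jund were lower in GMP, 2 of 6, against 16% of genes lower. The mRNA libraries of these cells share 1 fit, and the CMP libraries enter 2 of the 3 comparisons.

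Fos was at 2.63 and 6.5 CPM in CMP, 6.65 and 9.4 CPM in GMP, and 0.0563 and 0.113 CPM in MEP. The MEP value is 2 and 4 counts, and the ratio of summed read pairs was 53.7 (exact 95% interval 18 to 262.9, counting error only) for CMP over MEP and 94.2 (31.9 to 459.7) for GMP over MEP. GMP and CMP did not differ past the threshold (1.03, adjusted p = 0.0548), but did without CMP replicate 2 (1.81, adjusted p = 0.00143), without a filter on low counts (0.000238), with young HSCs in the fit (0.0246) and with counts halved to read pairs (0.0443). Fosl2 was at 11 and 13.2 CPM in CMP, 12.7 and 13.1 CPM in GMP and 0.451 and 0.34 CPM in MEP (MEP against CMP -4.81, SE 0.24, adjusted p = 9.26e-10). Batf was at 25.1 and 30.6 CPM in CMP, 23.7 and 23.7 CPM in GMP and 3.91 and 3.37 CPM in MEP (-2.82, SE 0.15, adjusted p = 1.69e-09). For these genes MEP lay far below both other progenitors in every library.

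The JUN genes followed another order. Jund was at 21.5 and 32.7 CPM in CMP, 8.51 and 11.1 CPM in GMP, and 64.1 and 57.2 CPM in MEP, so that the 3 cell types did not overlap. It was higher in MEP than in CMP (1.28, SE 0.19, adjusted p = 0.000395) and GMP (2.52, adjusted p = 7.63e-06), and lower in GMP than in CMP (-1.25, adjusted p = 0.00194). Jun was at 7.67 and 12.2 CPM in CMP, 4.11 and 4.88 CPM in GMP and 8.62 and 8.09 CPM in MEP, lower in GMP than in CMP (-0.93, adjusted p = 0.00566; without CMP replicate 2, -0.56 and 0.11). MEP exceeded GMP in Jun (0.79, adjusted p = 0.0076; without GMP replicate 1, 0.0593). Junb, at 40.4 and 84 CPM in CMP, 30.8 and 52.1 CPM in GMP and 41 and 40 CPM in MEP, overlapped throughout (adjusted p from 0.45 to 0.845). Fosb, Batf3 and Atf3 were at or below the floor in GMP and MEP.

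Of the summed level of the 9 genes per kilobase, Jund took 61.4% and Batf 4.37% in MEP, whereas Junb took 38.4%, Batf 35.9%, Jund 12.6% and Fos 7.27% in GMP. In the lists, 10 of 18 bZIP genes were lower and 3 higher in MEP than in CMP, where 35.6% of all genes tested were lower and 28.9% higher. Jdp2, a repressor that pairs with JUN proteins, was at 17.9 CPM in CMP and 0 in MEP, so it could only be called lower in MEP. Nfe2l2, the oxidative stress factor, was at 135.4 CPM in CMP and 245 CPM in MEP (0.97). Irf8, the BATF partner that drives monocyte and dendritic cell fate, was at 406 CPM in CMP and 0.691 CPM in MEP (-9.08). Of 16 kinases and phosphatases 9 were lower and 5 higher, of 6 activators of Fos 4 were lower, of 8 targets 3 were lower and 1 higher, and of 19 early response genes 12 were lower and 3 higher. The share of targets lower is close to that of all genes. Between GMP and CMP, where 18.8% of all genes were higher and 16% lower, the bZIP list had 4 higher, led by Cebpb (1.46), and 4 lower, led by Bach2 (-2.10).

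Young HSCs were compared with CMP in 1 fit with the other progenitors, in which 4 of 7 members were called, against 78.3% of the 25716 genes tested. The median of all genes tested was itself 0.49 on the log2 scale (0.61 with RLE size factors, 1.10 with DESeq2), so changes are also given relative to that median, without a test. Before the median was taken off, Jun (0.86), Jund (0.58) and Batf (0.32) were called higher in HSCs and Fos (-2.28) lower. Junb was not called (-0.33, edgeR, adjusted p = 0.382). Relative to the median, Fos stood at -2.76 and Junb at -0.81. Jun stood at 0.37, Jund at 0.10, Batf at -0.17 and Fosl2 at -0.43 relative to the median. With DESeq2 the relative values of Jun (-0.12) and Jund (-0.39) change sign, as they do without a filter on low counts (-1.04 and -1.32), while Fos stays lower (-3.26 and -4.18). The medians there were 1.10 and 1.90. Before they were taken off, Jun was at 0.98 and 0.85 and Jund at 0.70 and 0.58. HSC and progenitor libraries differ in sequencing, with even numbers making up 39.6% to 44.3% of the counts from 1 to 20 in HSCs and 74.1% to 76.2% in progenitors, so cell type and experiment cannot be told apart.

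Across the 11 groups, each member had its own order of levels in CPM. By the labels the shRNA libraries used another kit than the others, and fresh HSCs were not tested against shRNA libraries. Between fresh HSCs, shRNA libraries and progenitors, cell state and experiment therefore cannot be told apart. Jun was highest in old HSCs (56.2 CPM) and cultured controls (51.4 CPM), whose libraries overlap, then in the cultured knockdown groups (47.5 and 43.3 CPM), the transplanted groups (30.6 to 36.6 CPM) and young HSCs (23.1 CPM), and lowest in GMP (4.5 CPM). Fosl2 ran from old HSCs (24.3 CPM) to MEP (0.395 CPM), with young HSCs and the cultured groups overlapping their neighbours. Batf was between 44.4 and 50.2 CPM in all 8 groups of HSCs, and lower in CMP (27.9 CPM), GMP (23.7 CPM) and MEP (3.64 CPM), each apart from the next in CPM. After scaling, Batf in GMP differed from CMP by -0.02 (edgeR, adjusted p = 0.947), so the order of CMP and GMP in CPM was not seen there. In young HSCs Batf was called higher than in CMP after scaling (0.32, SE 0.096, edgeR, adjusted p = 0.00524). Relative to the median of all genes tested, that value was -0.17. Jund fell from the cultured groups (211.4 to 228.6 CPM) to the transplanted ones (63.8 to 70.8 CPM), and was lowest in CMP (27.1 CPM) and GMP (9.83 CPM).

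The genes whose pattern was most like that of each member were sought among 18598 genes by Pearson's r of log2 CPM over the 11 group means, which share libraries and depth. The closest were Hlx (0.977), Dtx4 (0.968) and Atrnl1 (0.962) for Fos, Kcnk6 (0.984), Bcr (0.983) and Lrp5 (0.982) for Fosl2, and Exoc3l4 (0.988), Rhbdl2 (0.982) and Junos (0.981) for Jun. For Junb they were Gosr2 (0.895), Hexdc (0.889) and Gm10644 (0.883), for Jund Gm11175 (0.999), Stk38l (0.986) and Zfyve21 (0.982), and for Batf Slc27a1 (0.998) was the first. Junos and Gm11175 overlap Jun and Jund on the other strand, and reads of these pairs cannot be told apart. Within the family, the pair most alike was Fosl2 and Batf (0.900), followed by Jund and Atf3 (0.830) and by Jun and Jund (0.813).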

How the data were processed

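The mRNA-seq files hold raw counts per gene, which the authors made by trimming reads with trim galore and cutadapt, aligning to mm10 with STAR and counting on GENCODE M22 with featureCounts; no source used here gives strand or multi-mapping settings. The ATAC-seq file holds the authors' raw counts over 127695 consensus regions (BWA, duplicates, multi-mapped reads and blacklisted regions removed, MACS). For histone marks the deposited unit is signal per peak, from libraries scaled by the authors to equal read numbers, and columns of fold changes were not used. In all, 8 columns of per-sample values were tied to no listed sample and were not used, and 92 spike-in rows were left out. The labels name a total RNA kit for fresh HSCs and progenitors and SMART-seq v4 for the shRNA libraries, while the methods name SMART-Seq kits.

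Counts were compared with edgeR 4.0.16 (TMM, filterByExpr, robust quasi-likelihood test, Benjamini-Hochberg over all features tested, called at 0.05) in R 4.3.3. ATAC regions above 1.5 CPM in at least 4 libraries were called at an adjusted p below 0.01 when they also differed over 1.5-fold. H3K27ac signal was compared with limma 3.58.1 on log2(signal + 0.1). DESeq2 1.42.0, RLE size factors, other filters and thresholds, a replicate block and leaving out each library were alternatives. Tables and figures were made with Python 3.11.15, pandas 2.3.3, numpy 2.4.6 and matplotlib 3.10.9. The fits were tested on simulated data. Groups came from the sample labels. Start sites came from 45756 curated RefSeq transcripts and sequences from RefSeq on GRCm38.p6, with a promoter for all 9 genes; gene spans came from GENCODE.

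The members, lists and tests were chosen with earlier results of these data known. The text names all members, genes from among each list's 2 largest changes each way past the test (not all are printed), the 3 genes most like a member, and peaks and regions at promoters or past the test. Reads carry no molecular identifiers, so floors (6 counts, or 3 read pairs, over a group of 2 libraries) and the exact interval cover counting error only. ATAC libraries held 15427933 to 26260337 counts, and the smallest chi-square per degree of freedom between replicates was 2.17, so none was a duplicate. H3K36me3, H3K9me3, Hi-C and progenitor ChIP-seq were not analysed here. The count of kinases and phosphatases after knockdown in culture is not reported here.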

Additional observations from a re-analysis of the deposited data

How the results depend on the processing

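The number of members higher in old HSCs was 4, 2 when a fold change above 1.5 was also asked for, and 3 to 5 when a library was left out. After knockdown in transplanted HSCs it was 0, and 1 (Fosl2) at an unadjusted p below 0.05 and a fold change above 1.5. Young HSCs against CMP gave 4 and, at a fold change above 1.5, 2. Accessible regions called numbered 3, but 1 at a fold change above 2, 0 within 10 kb of a gene, 6 without the CPM filter and 1 to 5 when a library was left out (1 without young replicate 4, 5 without old replicate 7). H3K27ac peaks called numbered 3, and 0 to 5 when a library was left out. The share of regions with an AP-1 element was 2.08 times higher in regions higher in old HSCs than in those not called, and 1.58 times over whole regions; no cause of these shifts was tested beyond the change in setting. Halving the counts of libraries counted in pairs was chosen after seeing the data. Of 2920 values of single genes and regions under an alternative, 2728 kept direction and side of the threshold, 123 were past it in the main setting alone, 27 in the alternative alone, and 42 turned direction, none of the 42 past the threshold. With each library left out in turn, values that turned direction ran over these log2 ranges. With age, Fosb lay between -0.43 and 0.12. After knockdown in culture, Fos ran from -0.34 to 0.33, Jun from -0.55 to 0.27 and Batf from -0.063 to 0.00086, each lowest without control replicate 1 and highest without control replicate 2, and Atf3 from -0.27 to 0.089. After knockdown in transplanted HSCs, Fos ran from -0.52 to 0.89, Jun from -0.15 to 0.087 and Batf from -0.18 to 0.12, again set by the 2 controls. In cultured against transplanted controls, Batf ran from -0.12 to 0.18. In GMP against CMP, Junb ran from -0.80 to 0.24 and Batf from -0.15 to 0.12. In MEP against CMP, Jun ran from -0.45 to 0.22 and Junb from -0.95 to 0.092, and in MEP against GMP, Junb from -0.48 to 0.29. In young HSCs against CMP, Fosb ran from -0.74 to 2.61, Fosl2 from -0.071 to 0.19 and Junb from -0.76 to 0.28; either CMP library gave the extremes of all these CMP values. H3K27ac ran from -0.055 to 0.044 at Jun, -0.35 to 0.022 at Jund, -0.018 to 0.56 at Fosb, -0.27 to 0.20 at Batf3 and -0.026 to 0.12 at the Batf peak 18569 bp from the start. Other settings turned direction as follows. With shRNA2 alone, Fos was 0.14 and Atf3 0.075 in culture, and Fos -0.51 after transplantation. With shRNA1 alone, Jun was 0.086 and Jund 0.0081 after transplantation. With equal medians, H3K27ac was -0.020 at the Batf promoter and -0.045 at the same other Batf peak.

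Replicate numbers are not stated to mark pairs. The correlation of deviations between same-numbered libraries ran from -0.22 to 0.04 between the ages and from -0.03 to 0.06 elsewhere. No pairing was seen in these values, which cannot tell whether same-numbered samples shared animals or handling. With the number as a replicate block, 5 members were higher with age (Junb joined, adjusted p = 0.0155, while Socs3 was no longer called, at 0.0596), 3 differed between GMP and CMP (Fos joined, adjusted p = 0.00387), 4 between cultured and transplanted controls, and 0 after knockdown. No paired analysis was possible for ATAC-seq because replicates 1 to 4 are young and 5 to 8 are old, with no number in common. Depth limits Fosb, Batf3 and Atf3, which lie near a few counts per library outside culture.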

Other observations

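Other accessible regions of the family that were lower in old HSCs without reaching 1.5-fold include one 10 kb upstream of Fosb, at means of 22.1 CPM (young) and 16.4 CPM (old) (log2 difference -0.45, adjusted p = 8.15e-06, edgeR), and one 14.9 kb upstream of the RefSeq start of Atf3, at 5.41 and 3.7 CPM (-0.57, adjusted p = 0.00249). The latter was called lower without young replicate 1 or 2, without old replicate 7, or without a filter on CPM. In both, all old libraries were below all young ones.

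In MEP against GMP, where 33.7% of all genes tested were lower and 27.7% higher, 9 of 18 other bZIP genes were lower and 4 higher, as were 8 and 5 of 16 kinases and phosphatases, 5 and 1 of 6 activators of Fos, 4 and 1 of 8 AP-1 targets, and 12 and 4 of 19 early response genes. Plaur, the urokinase receptor and an AP-1 target, was at 28.4 CPM in GMP and 0.141 CPM in MEP. The latter is near the floor of 0.0847 CPM, so Plaur could only be called lower in MEP. In young HSCs against CMP, where 48.3% of all genes were higher and 30% lower, 10 of 19 bZIP genes were higher and 8 lower, with Maf at 6.19 CPM in HSCs and 0.22 CPM in CMP.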
